A study of Mus musculus with 23 samples.

Results

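The abundance of 10 transcripts that mark mast cells was followed in colon tissue and colon tumors of mice colonized with *Bacteroides fragilis*. The genes were picked by symbol: *Mcpt1*, *Mcpt2*, *Mcpt4*, *Cma1*, *Cpa3*, *Tpsb2*, *Kit*, *Fcer1a*, *Ms4a2* and *Hdc*. They were 10 of the 55449 genes in the table, and 10 of 10 passed the filter on low counts over the 23 libraries together.

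Mast cells are tissue immune cells that mature under the growth factor SCF, the ligand of the receptor KIT. They store histamine, heparin and proteases in granules and release them when an antigen links IgE held on the high-affinity receptor FcεRI. In mice, mucosal mast cells of the gut carry the chymases MCPT1 and MCPT2, whereas connective tissue mast cells carry MCPT4, the chymase of *Cma1*, tryptase and the carboxypeptidase CPA3.

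Bulk RNA was sequenced from the colon of male Cdx2Apcf/w mice on a C57BL/6 background fed a 60% high-fat diet (HFD). In this model Cre under the *Cdx2* promoter deletes 1 allele of *Apc*, so the deletion is limited to cells that have used that promoter, and mice of all 6 groups carried it. At an age of 6 to 8 weeks the mice drank water with neomycin, streptomycin and bacitracin before they were colonized. They then received BF638R bsh- (BSHlow, the strain 638R with an empty vector) or BF638R bsh+ (BSHhigh, the same strain with the bile salt hydrolase gene of another *B. fragilis* strain). After 2 weeks, normal colon was taken from 4 BSHlow and 4 BSHhigh samples. After 12 weeks, there were 4 BSHlow and 4 BSHhigh samples of non-tumor tissue, 4 BSHlow tumors and 3 BSHhigh tumors. In the deposited table the columns of the 3 BSHhigh tumors repeat the names of BSHlow tumors 1 to 3. They were assigned by the study's own listing of its bulk counts, which gives the same values under the BSHhigh tumors, and every BSHhigh tumor value rests on this. They are known only as a group and are called replicates a, b and c. The study calls its non-tumor and tumor samples independent and their numbers pooled, without saying whether each came from a separate mouse, so p-values measure the spread between these samples.

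The expected counts of a library summed to 15874872 in the median, from 12401388 to 17903008. The group medians were 15171937 and 15694072 at 2 weeks (BSHlow and BSHhigh), 15352230 and 15936516 in non-tumor tissue, and 16220367 and 16847840 in tumors. The confidence intervals and floors given here cover counting error only. Levels are counts relative to library size (CPM), with TMM scaling over the 23 libraries, and are given in the order of the replicates (1 to 4, or a to c).

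The tissue labels were checked against marker genes. *Epcam*, which encodes an adhesion molecule of epithelial cells, was between 812 and 2034 CPM in all 23 libraries. *Cdx2*, an intestinal transcription factor whose promoter drives the Cre, was at 406, 337, 332 and 312 CPM in 2-week BSHlow colon and at 358, 427, 350.2 and 375 in 2-week BSHhigh colon. In 12-week non-tumor tissue *Cdx2* was between 6.31 and 59.7 CPM, and in tumors at 1.06, 0.253, 1.94 and 0.435 CPM (BSHlow) and 27.6, 3.18 and 2.41 CPM (BSHhigh). It was thus near 0 in the BSHlow tumors, although *Epcam* was present there. The pan-leukocyte gene *Ptprc* was at 33.4, 10.9, 18.3 and 26.4 CPM in the BSHlow tumors and at 43.3, 31.3 and 32.9 in the BSHhigh tumors.

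Of the members, 4 encode chymases and lie in 1 cluster on chromosome 14 of GRCm38, between 55941451 and 56062313. *Cma1* (ENSMUSG00000022225.7) occupies 55941451 to 55944675 on the minus strand, *Mcpt1* (ENSMUSG00000022227.5) 56017971 to 56020384 on the plus strand, *Mcpt2* (ENSMUSG00000022226.6) 56042041 to 56044642 on the plus strand and *Mcpt4* (ENSMUSG00000061068.7) 56059629 to 56062313 on the minus strand. *Cpa3* (ENSMUSG00000001865.2) spans 20215620 to 20242181 on the minus strand of chromosome 3 and overlaps the microRNA gene *Mir7007* on the same strand. *Tpsb2* (ENSMUSG00000033825.10) spans 25366305 to 25369098 on the plus strand of chromosome 17, and a second tryptase gene, *Tpsab1*, lies 20742 bases away. *Kit* (ENSMUSG00000005672.12) lies on chromosome 5 (75574916 to 75656722, plus strand) and *Fcer1a* (ENSMUSG00000005339.10) on chromosome 1 (173221284 to 173227214, minus strand). *Ms4a2* (ENSMUSG00000024680.12) lies on chromosome 19 (11615523 to 11623719, minus strand) and *Hdc* (ENSMUSG00000027360.5) on chromosome 2 (126593667 to 126619299, minus strand). Apart from *Ms4a2* in 1 library, the 10 genes had whole expected counts in all libraries, although the chymases, like the tryptases, are similar in sequence and a read may have been assigned to a relative.

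The first question was how the mast cell genes differed between tumors and non-tumor tissue after 12 weeks. In the BSHlow mice, tumors had more *Mcpt1*, *Mcpt2*, *Tpsb2*, *Ms4a2* and *Hdc* and less *Cma1* and *Kit* than non-tumor tissue. In the BSHhigh mice, tumors had more *Mcpt1*, *Ms4a2* and *Hdc* and less *Kit*. Genes were called when the edgeR test adjusted over all genes gave p under 0.05 and the absolute log2 fold change was over 1. By this rule 7 of 10 members were called in BSHlow mice, against 36.2% of the 16454 genes tested, and 4 of 10 in BSHhigh mice, against 29.4%. The 5 higher members in BSHlow mice stood against 16.7% of all genes called higher, and the 2 lower ones against 19.5% called lower. For BSHhigh mice, 3 members were higher against 14.6% of all genes, and 1 was lower against 14.8%. The median log2 fold change of the members was 2.47 (all genes 0.04) in BSHlow mice and 1.36 (all genes 0.04) in BSHhigh mice. *Fcer1a* and *Ms4a2* were under the filter on low counts in non-tumor tissue and entered through the tumors, where they were high. Their p-values and calls, and the counts and medians that include them, are therefore a description only. In bulk tissue, a change in the number of mast cells and a change in RNA per mast cell cannot be told apart.

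**Figure D1:**
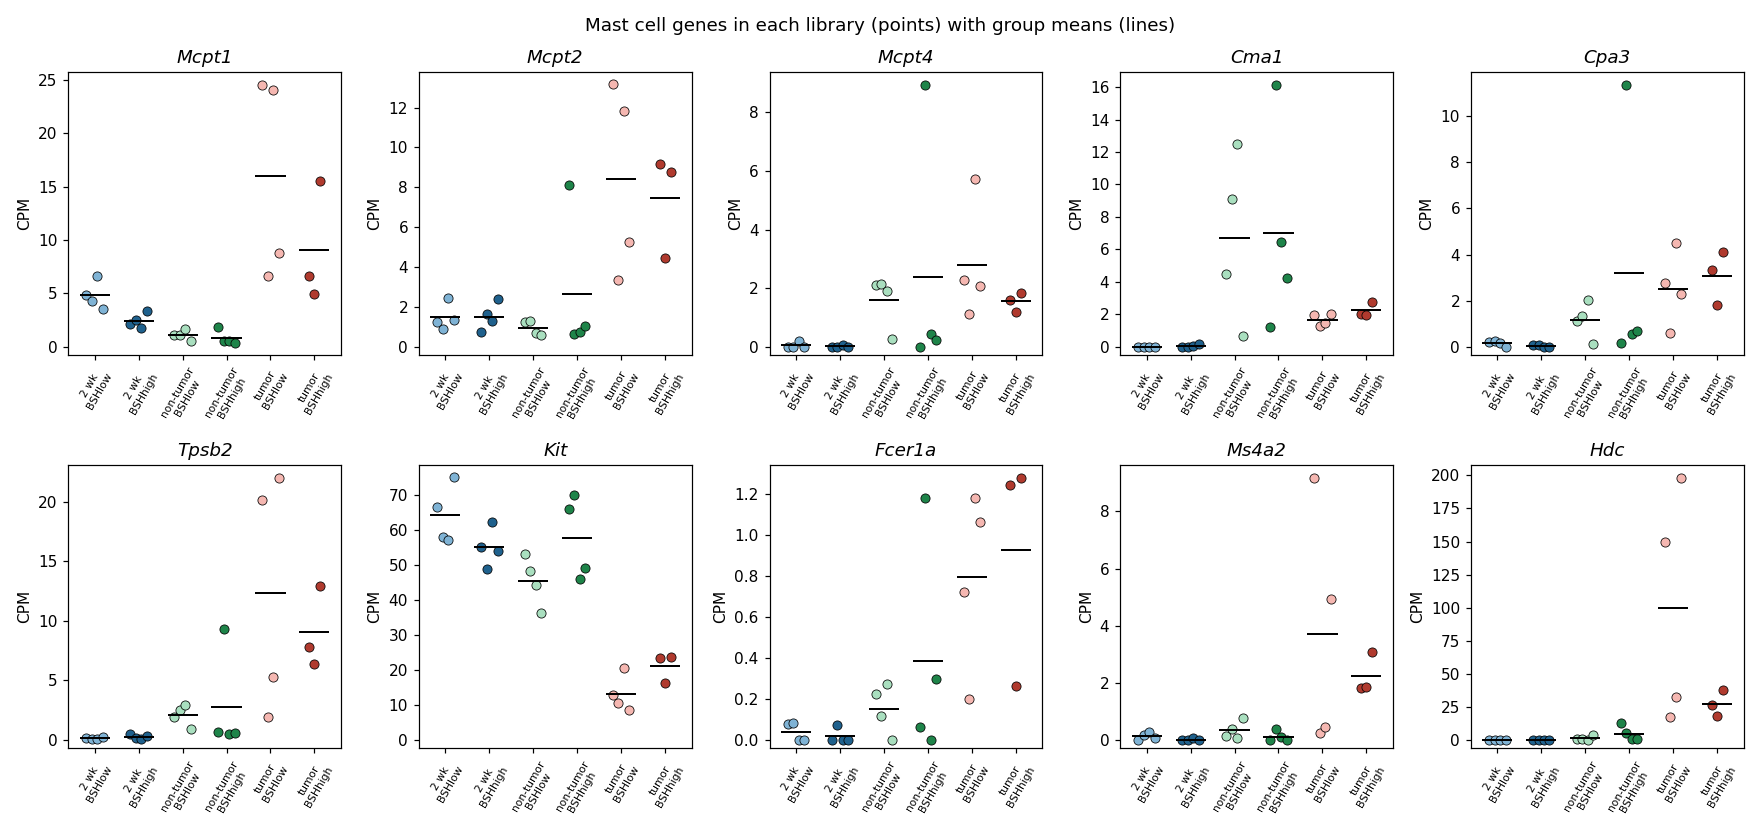
CPM of the 10 mast cell genes (vertical axes, linear) in the 23 libraries, by group (horizontal axes); each point is a library and each line a group mean. *Mcpt1* and *Hdc* were higher in tumors than in any non-tumor library of the same strain, while *Kit* was lower, with group means of 13.2 CPM in BSHlow and 21.2 CPM in BSHhigh tumors.

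*Mcpt1* and *Mcpt2* encode the beta-chymases of mucosal mast cells. *Mcpt1* was at 24.5, 6.67, 24.0 and 8.80 CPM in the BSHlow tumors and at 6.63, 4.95 and 15.5 CPM in the BSHhigh tumors. *Mcpt1* in non-tumor tissue was at 1.12, 1.16, 1.63 and 0.583 CPM (BSHlow) and 1.85, 0.558, 0.552 and 0.371 CPM (BSHhigh), and in 2-week colon at 4.86, 4.30, 6.60 and 3.50 CPM (BSHlow) and 2.10, 2.48, 1.80 and 3.36 CPM (BSHhigh). The tumors of each strain were all above the non-tumor libraries of that strain, and the 2-week libraries lay between them, except for BSHhigh replicate 3 of 2 weeks, which was below BSHhigh non-tumor replicate 1. The log2 fold change of *Mcpt1* in tumors against non-tumor tissue was 3.85 (SE 0.60, adjusted p = 6.37e-05 by edgeR, higher in 4 of 4 tumors) in BSHlow mice. BSHhigh mice had 3.41 (SE 0.62, adjusted p = 0.000374 by edgeR, higher in 3 of 3 tumors). *Mcpt1* stayed called in all 26 alternatives run for BSHlow and all 24 run for BSHhigh mice. The alternatives for each strain include fits without 1 library of the other strain, which is not in the contrast. The BSHhigh value of *Mcpt1* was 4.16 without non-tumor replicate 1 and 2.77 without tumor replicate c.

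*Mcpt2* was at 13.2, 3.34, 11.8 and 5.27 CPM in the BSHlow tumors and at 9.17, 4.47 and 8.79 CPM in the BSHhigh tumors. *Mcpt2* in non-tumor tissue was at 1.27, 1.27, 0.678 and 0.583 CPM (BSHlow) and 8.14, 0.620, 0.736 and 1.04 CPM (BSHhigh), and in 2-week colon at 1.23, 0.910, 2.45 and 1.36 CPM (BSHlow) and 0.730, 1.65, 1.27 and 2.40 CPM (BSHhigh). All 4 BSHlow tumors were above the BSHlow non-tumor libraries, while BSHhigh non-tumor replicate 1 reached the range of the tumors. *Mcpt2* had a log2 fold change of 3.15 (SE 0.78, adjusted p = 0.00275 by edgeR) in BSHlow mice, called in all 26 alternatives. For BSHhigh mice the value was 1.49 (SE 0.76, adjusted p = 0.109 by edgeR), with 2 of 3 tumors above the 4 non-tumor libraries. Without BSHhigh non-tumor replicate 1 it was 3.22 (adjusted p = 0.000359 by edgeR). Limma-voom (adjusted p = 0.0201) and edgeR with library totals only (adjusted p = 0.0461) also called it, in a range of 0.000359 to 0.220 over the alternatives.

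*Mcpt4* encodes the main chymase of connective tissue mast cells. *Mcpt4* was at 2.27, 1.11, 5.72 and 2.08 CPM in the BSHlow tumors, 1.61, 1.19 and 1.84 CPM in the BSHhigh tumors, 2.09, 2.14, 1.90 and 0.259 CPM in BSHlow non-tumor tissue and 0, 8.93, 0.429 and 0.223 CPM in BSHhigh non-tumor tissue. *Mcpt4* at 2 weeks had 2 counts in BSHlow and 1 count in BSHhigh colon. Tumor and non-tumor libraries overlapped in both strains, and BSHhigh non-tumor replicate 2 had the highest level of the 23 libraries while replicate 1 of that group was at 0. *Mcpt4* had a log2 fold change of 0.82 (SE 1.08, adjusted p = 0.521 by edgeR) in BSHlow and of −0.64 (SE 1.17, adjusted p = 0.663 by edgeR) in BSHhigh mice. Without BSHhigh non-tumor replicate 2 the latter turned to 2.79 (adjusted p = 0.0205 by edgeR, in a range of 0.0205 to 0.804 over the alternatives).

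*Cma1* encodes mouse mast cell protease 5, an alpha-chymase gene by descent. *Cma1* was at 1.98, 1.26, 1.46 and 2.03 CPM in the BSHlow tumors, 2.02, 1.99 and 2.74 CPM in the BSHhigh tumors, 4.49, 9.09, 12.5 and 0.648 CPM in BSHlow non-tumor tissue and 1.23, 16.1, 6.44 and 4.23 CPM in BSHhigh non-tumor tissue. *Cma1* at 2 weeks had 0 counts in BSHlow and 3 counts in BSHhigh colon. In each strain 3 of 4 non-tumor libraries were above all tumors of that strain, and the remaining library (BSHlow replicate 4, BSHhigh replicate 1) was below them. The log2 fold change in BSHlow mice was −1.96 (SE 0.74, adjusted p = 0.0303 by edgeR). This call was lost without BSHlow non-tumor replicate 2 (adjusted p = 0.0653 by edgeR) or 3 (0.109), without BSHlow tumor 2 (0.0676) or 3 (0.0642) and without BSHlow tumors 1 and 4 together (0.0767). It was also lost with the replicate number as a block (−1.55, adjusted p = 0.164 by edgeR), with library totals only (adjusted p = 0.0635 by edgeR) and with limma-voom (adjusted p = 0.208), in a range of 0.00455 to 0.208. In BSHhigh mice the log2 fold change was −1.64 (SE 0.80, adjusted p = 0.0951 by edgeR). It was called by DESeq2 (adjusted p = 0.0426), without BSHhigh non-tumor replicate 1 (−1.99, adjusted p = 0.0359 by edgeR) and without BSHlow non-tumor replicate 4 (adjusted p = 0.0394 by edgeR), in a range of 0.0359 to 0.378.

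The promoters of 8 members were matched in RefSeq on GRCm38.p6, and those of *Mcpt2* and *Tpsb2* were not matched. They were searched on both strands for AGATAA and AGATAG and for TGATAA and TGATAG, spellings of the GATA motif, because *Gata2*, a transcription factor of mast cells, was measured in the same libraries. Of the 8 windows of 250 bases before the RefSeq start, 7 held at least 1 spelling (all but *Kit*), as did 26.5% of 32851 promoters of that length. The E-box spellings CATGTG and CACGTG were present in 1 window, that of *Fcer1a*, and in 17.6% of all promoters. A match describes the letters only and is not a binding site. The sequences of the 3 matched chymase genes are shown, 5′ to 3′ on the strand of the gene, because the windows of *Mcpt1*, called between the tissues in both strains, and *Mcpt4*, called in neither, were the most alike of all pairs. The window of *Mcpt1* is chr14:56017714-56017963 (plus strand), that of *Mcpt4* chr14:56062311-56062560 (minus strand) and that of *Cma1* chr14:55944676-55944925 (minus strand). Capitals mark the GATA match.
Mcpt1: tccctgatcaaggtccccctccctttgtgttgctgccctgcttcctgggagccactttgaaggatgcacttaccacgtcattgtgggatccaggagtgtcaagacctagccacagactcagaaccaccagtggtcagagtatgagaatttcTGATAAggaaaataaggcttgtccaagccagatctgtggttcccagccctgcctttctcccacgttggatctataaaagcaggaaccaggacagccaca
Mcpt4: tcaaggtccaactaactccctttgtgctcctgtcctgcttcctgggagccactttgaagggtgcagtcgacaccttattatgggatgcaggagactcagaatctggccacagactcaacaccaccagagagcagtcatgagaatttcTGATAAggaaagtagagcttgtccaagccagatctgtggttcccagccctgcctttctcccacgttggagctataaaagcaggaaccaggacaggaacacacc
Cma1: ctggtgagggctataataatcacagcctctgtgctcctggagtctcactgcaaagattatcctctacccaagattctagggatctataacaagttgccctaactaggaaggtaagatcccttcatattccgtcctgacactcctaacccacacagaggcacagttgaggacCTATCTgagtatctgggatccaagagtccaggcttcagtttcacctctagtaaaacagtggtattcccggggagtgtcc
The first base of the match lay 99 bases before the start in *Mcpt1*, 103 in *Mcpt4* and 79 in *Cma1*. *Mcpt1* and *Mcpt4* were 81.9% identical over 254 aligned columns, with a shared run of 53 bases, and both held TGATAAGG, found in 0.545% of all promoters. The other 27 pairs of member promoters were between 39.0% and 51.8% identical, with shared runs of 6 to 11 bases.

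The chymase counts were also expressed as a share, which does not depend on the scaling of a library. *Mcpt1* and *Mcpt2* together gave 89.9, 80.8, 83.3 and 77.4% of the counts of the 4 chymase genes in the BSHlow tumors and 81.3, 74.7 and 84.1% in the BSHhigh tumors. Non-tumor tissue gave 26.7, 17.8, 13.8 and 56.3% (BSHlow) and 89.0, 4.49, 15.8 and 24.1% (BSHhigh). Thus 7 of 8 non-tumor libraries were below all 7 tumors, and BSHhigh non-tumor replicate 1 was above 6 of them, with a 95% Wilson interval of 83.6 to 92.8%. BSHlow non-tumor replicate 4 had the fewest chymase counts of the 12-week libraries, 32, and an interval of 39.3 to 71.8%. At 2 weeks the share was between 95.3 and 100% in the 8 libraries. The median share was 82.1% (BSHlow) and 81.3% (BSHhigh) in tumors against 22.2% and 19.9% in non-tumor tissue, and was not tested, since it was chosen after the values were seen.

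**Figure D2:**
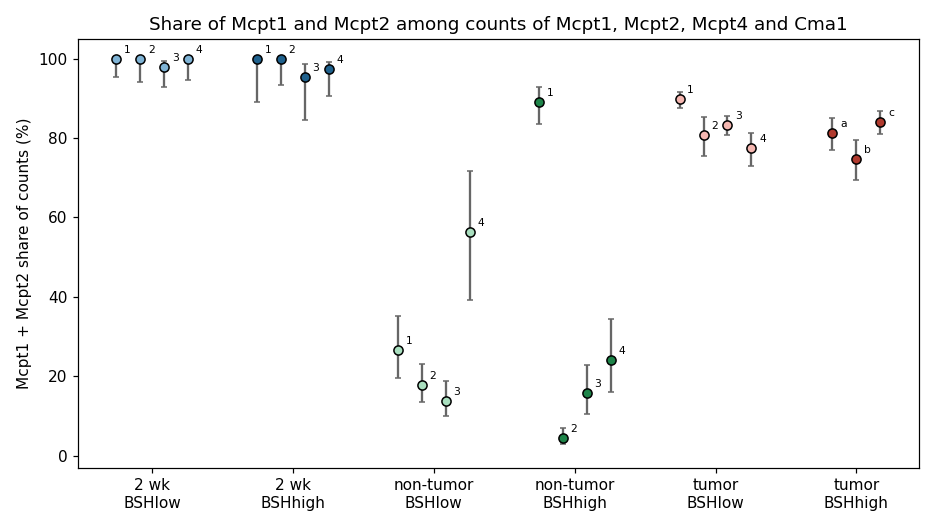
Percent of the counts of *Mcpt1*, *Mcpt2*, *Mcpt4* and *Cma1* that came from *Mcpt1* and *Mcpt2* (vertical axis) in each library, by group (horizontal axis), with 95% Wilson intervals and replicate labels. The 7 tumors sit between 74.7 and 89.9%, and 7 of 8 non-tumor libraries between 4.49 and 56.3%, with BSHhigh non-tumor replicate 1 at 89.0%.

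*Cpa3* encodes carboxypeptidase A3, a granule enzyme that is stored together with the *Cma1* product. *Cpa3* was at 2.75, 0.606, 4.49 and 2.27 CPM in the BSHlow tumors, 3.32, 1.81 and 4.11 CPM in the BSHhigh tumors, 1.12, 1.33, 2.04 and 0.130 CPM in BSHlow non-tumor tissue and 0.185, 11.4, 0.552 and 0.668 CPM in BSHhigh non-tumor tissue. At 2 weeks it was between 0 and 0.248 CPM in the 8 libraries. BSHhigh non-tumor replicate 2 had the highest level of all libraries, above every tumor, and the other 3 libraries of its group were below every BSHhigh tumor. *Cpa3* had a log2 fold change of 1.15 (SE 1.04, adjusted p = 0.346 by edgeR) in BSHlow mice and of −0.07 (SE 1.06, adjusted p = 0.964 by edgeR) in BSHhigh mice. Without BSHhigh non-tumor replicate 2 the latter became 2.71 (adjusted p = 0.0145 by edgeR, in a range of 0.0145 to 1 over the alternatives).

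*Tpsb2* encodes tryptase beta 2, the other main class of granule protease. *Tpsb2* was at 20.2, 1.92, 5.29 and 22.0 CPM in the BSHlow tumors, 7.82, 6.37 and 12.9 CPM in the BSHhigh tumors, 1.94, 2.55, 2.98 and 0.907 CPM in BSHlow non-tumor tissue and 0.678, 9.30, 0.491 and 0.594 CPM in BSHhigh non-tumor tissue. *Tpsb2* at 2 weeks was between 0.0750 and 0.547 CPM. BSHlow tumors 1 and 4 were high, BSHlow tumor 2 lay within the non-tumor range, and BSHhigh non-tumor replicate 2 again reached the tumors. The log2 fold change was 2.58 (SE 0.93, adjusted p = 0.0253 by edgeR) in BSHlow mice, where 3 of 4 tumors were above all non-tumor libraries. This call was lost without BSHlow tumor 1 (2.21, adjusted p = 0.0650 by edgeR), tumor 4 (2.12, 0.0716), both (0.78, 0.520), non-tumor replicate 1 (2.54, 0.0552) or 4 (2.33, 0.0630). It was also lost with the replicate number as a block (2.07, adjusted p = 0.1002 by edgeR) and with limma-voom (adjusted p = 0.0878), in a range of 0.00312 to 0.520. In BSHhigh mice the log2 fold change was 1.69 (SE 0.95, adjusted p = 0.144 by edgeR), and 3.92 without non-tumor replicate 2 (adjusted p = 0.00159 by edgeR, in a range of 0.00159 to 0.321). The second tryptase gene, *Tpsab1*, was at most 0.709 CPM in all 23 libraries and at 0 in the 8 of 2 weeks.

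*Hdc* encodes histidine decarboxylase, which makes histamine and is also used by basophils and immature myeloid cells. *Hdc* was at 150.0, 17.5, 32.9 and 198 CPM in the BSHlow tumors and at 26.8, 18.2 and 37.6 CPM in the BSHhigh tumors. *Hdc* in non-tumor tissue was at 1.12, 0.637, 0.271 and 3.95 CPM (BSHlow) and 13.2, 5.09, 0.736 and 0.520 CPM (BSHhigh), and at 2 weeks at most at 0.375 CPM. Every tumor was above every non-tumor library of its strain, and BSHlow tumors 1 and 4 were far above the other 5 tumors. Its log2 fold change was 6.06 (SE 1.10, adjusted p = 0.000235 by edgeR, higher in 4 of 4 tumors) in BSHlow mice and was called in all 26 alternatives. Without BSHlow non-tumor replicate 4 it was 7.25, without BSHlow tumor 4 it was 5.47 and without BSHlow tumors 1 and 4 together, a setting chosen after seeing the data, it was 4.06. BSHhigh mice had a value of 2.47 (SE 0.96, adjusted p = 0.0400 by edgeR, higher in 3 of 3 tumors), and 3.66 without non-tumor replicate 1. That call was lost without BSHhigh non-tumor replicate 2 (adjusted p = 0.0749 by edgeR), 3 (0.0903) or 4 (0.0872), without BSHhigh tumor a (0.0626) or c (0.106) and with limma-voom (0.0819), in a range of 0.0103 to 0.106. Neutrophil markers were higher in the same tissue: their summed level (*S100a8*, *S100a9*, *Retnlg* and *Csf3r*) was 109, 41.1, 83.1 and 356 CPM in the BSHlow tumors and 255, 108 and 423 CPM in the BSHhigh tumors. The sum was between 1.57 and 14.5 CPM in BSHlow non-tumor tissue and 126, 29.5, 7.42 and 15.2 CPM in BSHhigh non-tumor tissue, where replicate 1 also had the most *Hdc*. *S100a9* was the most abundant of the 4 on average over the 23 libraries, and their part in the *Hdc* result was not tested. Of the 4 neutrophil genes, 4 were called higher in BSHlow and 2 in BSHhigh tumors, where *Retnlg*, called in BSHlow mice, was under the filter in non-tumor tissue. The 3 genes listed for basophils summed to at most 1.21 CPM in any library, with *Mcpt8* at most 0.283 CPM and *Prss34* at most 3 counts. The 1 that was tested was *Cd200r3*. It was called higher in the tumors of both strains, but was under the filter in non-tumor tissue and entered through the tumors, so this is a description only.

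The remaining members encode receptors. *Kit* encodes the SCF receptor, which is also made by interstitial cells of Cajal, the pacemaker cells of gut muscle, and by secretory cells of the colon crypt. *Kit* was at 12.9, 10.7, 20.5 and 8.61 CPM in the BSHlow tumors and 23.4, 16.3 and 23.8 CPM in the BSHhigh tumors. *Kit* in non-tumor tissue was at 53.2, 48.1, 44.3 and 36.4 CPM (BSHlow) and 66.1, 69.9, 46.0 and 49.1 CPM (BSHhigh), and in 2-week colon at 66.7, 58.1, 57.1 and 75.2 CPM (BSHlow) and 55.2, 49.0, 62.4 and 54.1 CPM (BSHhigh). All 7 tumors were below all 16 other libraries. *Kit* had a log2 fold change of −1.78 (SE 0.24, adjusted p = 1.54e-05 by edgeR, lower in 4 of 4 tumors) in BSHlow mice and of −1.46 (SE 0.26, adjusted p = 0.000285 by edgeR, lower in 3 of 3 tumors) in BSHhigh mice. It was called in all 26 and all 24 alternatives.

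Markers of the other *Kit*-bearing cells stood lower in tumors too. Of 3 genes listed for interstitial cells of Cajal, *Ano1* and *Etv1* fell by 1.63 and 2.60 on the log2 scale in BSHlow tumors and by 1.32 and 2.07 in BSHhigh tumors. *Ano1*, the most abundant, was between 64.9 and 124 CPM in the 7 tumors and between 194 and 320.4 CPM in the 8 non-tumor libraries. The third, *Prkcq*, was higher in BSHlow tumors (log2 fold change 2.14). The summed level of the list was between 82.8 and 128 CPM in tumors, between 203 and 329 CPM in non-tumor tissue and between 18.8 and 86.9 CPM at 2 weeks, where *Kit* was between 49.0 and 75.2 CPM. Of 5 genes of goblet and deep secretory cells, 5 were lower in the tumors of each strain. *Reg4*, a gene of deep crypt secretory cells, was at 47.4, 36.3, 56.2 and 48.0 CPM in the BSHlow tumors, at 164, 106 and 121 CPM in the BSHhigh tumors and between 308 and 863 CPM in non-tumor tissue. The sum of the list was between 131 and 166 CPM in BSHlow tumors, where *Agr2* and *Reg4* exceeded *Muc2*, the most abundant on average over the 23 libraries. It was between 485 and 2059.8 CPM in BSHhigh tumors and between 4157 and 10694 CPM in non-tumor tissue. The part of these cells in the *Kit* result was not tested.

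*Fcer1a* and *Ms4a2* encode the alpha chain, which binds IgE, and the beta chain of FcεRI. *Fcer1a* was at 0.723, 0.202, 1.18 and 1.06 CPM in the BSHlow tumors, 1.24, 0.265 and 1.28 CPM in the BSHhigh tumors, 0.224, 0.116, 0.271 and 0 CPM in BSHlow non-tumor tissue and 0.0616, 1.18, 0 and 0.297 CPM in BSHhigh non-tumor tissue. Its log2 fold change was 2.37 (SE 1.03, adjusted p = 0.0561 by edgeR) in BSHlow mice, where 3 of 4 tumors were above all non-tumor libraries. DESeq2 (0.0455), library totals only (0.0318), a fit of all 23 libraries (0.0308) and fits without BSHlow tumor 2 (0.0367) or BSHhigh non-tumor replicate 2 (0.0275) or 3 (0.0361) called it, in a range of adjusted p of 0.0275 to 0.154. In BSHhigh mice the value was 1.24 (SE 0.96, adjusted p = 0.290 by edgeR), and 2.96 without non-tumor replicate 2 (adjusted p = 0.0281 by edgeR, in a range of 0.0281 to 0.520). *Fcer1a* had 2 counts in BSHlow and 1 count in BSHhigh colon at 2 weeks. Its p-values and calls are a description only, since it entered through the tumors.

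*Ms4a2* was at 9.16, 0.253, 0.472 and 4.93 CPM in the BSHlow tumors, 1.81, 1.86 and 3.07 CPM in the BSHhigh tumors, 0.150, 0.405, 0.0678 and 0.777 CPM in BSHlow non-tumor tissue and 0, 0.372, 0.123 and 0 CPM in BSHhigh non-tumor tissue. BSHlow tumors 1 and 4, which had the most *Hdc* and *Tpsb2*, also had the most *Ms4a2*, and BSHlow tumors 2 and 3 lay within the non-tumor range. All 3 BSHhigh tumors were above the non-tumor libraries of that strain. The log2 fold change was 3.38 (SE 1.06, adjusted p = 0.0121 by edgeR, 2 of 4 tumors above all non-tumor libraries) in BSHlow mice, in the fit of both strains. In a fit of the BSHlow libraries alone *Ms4a2* was under the filter and was not tested. It was 4.11 without non-tumor replicate 4, 2.38 without tumor 1 (adjusted p = 0.0558 by edgeR), 0.03 without tumors 1 and 4 (0.979) and lost its call with limma-voom (0.119), in a range of 0.00278 to 0.979. In BSHhigh mice it was 4.07 (SE 1.24, adjusted p = 0.0120 by edgeR, higher in 3 of 3 tumors), called in all 24 alternatives, and 5.49 without non-tumor replicate 2. These p-values and calls of *Ms4a2* are a description only, since it entered through the tumors, where it was high. *Ms4a2* at 2 weeks was at most 0.283 CPM.

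**Figure D3:**
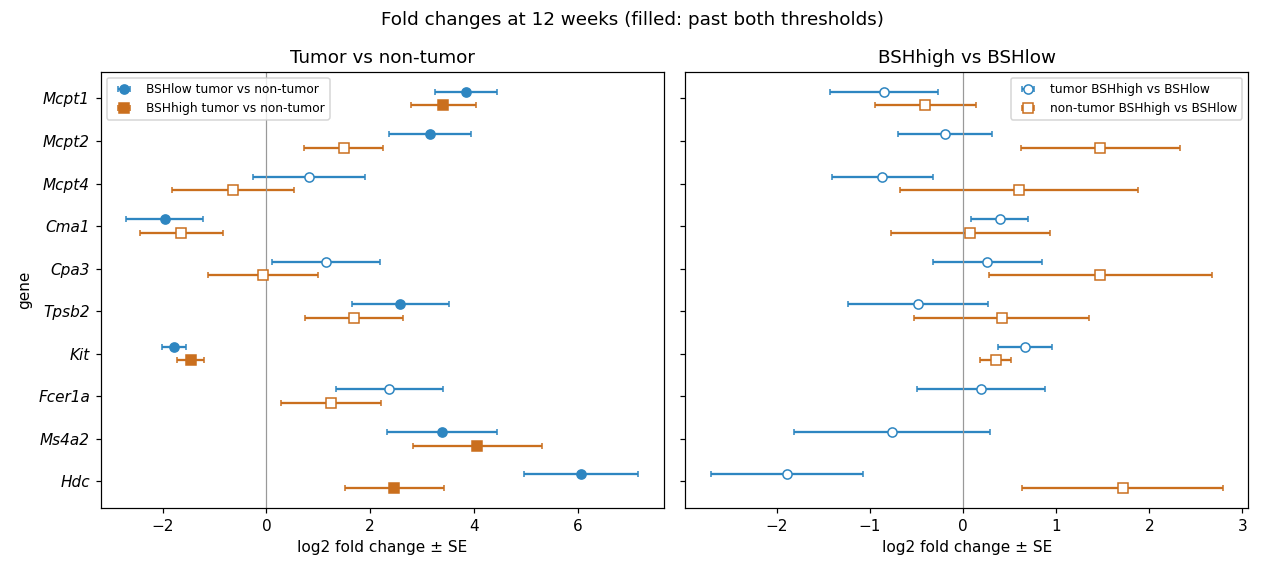
Log2 fold changes from edgeR with their SE (horizontal axes) of the 10 genes (vertical axis): on the left tumor against non-tumor tissue in BSHlow (circles) and BSHhigh mice (squares), on the right BSHhigh against BSHlow in tumors and in non-tumor tissue. Filled symbols mark values past both thresholds, which are 7 for BSHlow and 4 for BSHhigh mice on the left and 0 on the right; *Fcer1a* and *Ms4a2* were not tested between the strains in non-tumor tissue.

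Leaving out BSHhigh non-tumor replicate 2 raised the count of called members in BSHhigh mice from 4 to 7. With library totals only, the median of all genes moved to 0.37 (BSHlow) and 0.35 (BSHhigh), and the share of higher genes among all calls moved from 46.2 to 61.4% and from 49.6 to 66.2%.

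Whether the tumor effect differed between the strains was tested by the interaction term of the same fit. By edgeR 0 of 10 members passed, against 0.978% of the 16454 genes tested (0.972% called higher and 0.00608% lower). At an unadjusted p under 0.05 there was 1 member by edgeR (*Hdc*), 1 by DESeq2 and 0 by limma-voom, and DESeq2 and limma-voom called 0. *Hdc* had an interaction value of −3.59 (SE 1.43, adjusted p = 0.398 by edgeR), the farthest from 0 of the 10. As a description, the 4 neutrophil genes were also negative (median −1.82), as was the 1 basophil gene tested (−0.88). The medians of T cell (2.38), B cell (2.03) and macrophage genes (0.20) were positive. None of these genes was called, and the part of these cells was not tested. *Mcpt2* had −1.67 (SE 1.08, adjusted p = 0.718 by edgeR) and *Kit* 0.32 (SE 0.34, adjusted p = 0.865 by edgeR). The median of the members was −1.01 and that of all genes 0.03. Over all genes edgeR called 160 higher and 1 lower, DESeq2 379 and 8 and limma-voom 0 (1360 at an unadjusted p under 0.05), and without 1 library edgeR called between 86 and 334 higher, the most without BSHhigh tumor c. Without BSHhigh non-tumor replicate 2 the values of *Mcpt4*, *Cpa3*, *Tpsb2* and *Fcer1a* turned from −1.47, −1.21, −0.89 and −1.13 to 1.97, 1.56, 1.35 and 0.59, and without replicate 1 of that group those of *Mcpt1* and *Mcpt2* turned to 0.31 and 0.07. The lists of calls of the 2 strains are therefore not shown to differ.

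Genes that work with the members were counted from lists. Of all genes, 16.7% were called higher and 19.5% lower in BSHlow tumors, and 14.6% and 14.8% in BSHhigh tumors. Genes under the filter in 1 tissue entered through the other, where they were high (*Tpsab1*, *Cma2*, *Retnlg* and *Notum* through the tumors, *Slc18a2*, *Ltc4s*, *Il9r*, *Prg2*, *Siglecf* and *Ms4a1* through non-tumor tissue), so the counts and medians of lists that hold them are a description only. Of 16 further granule and mediator genes, 13 were tested, and in BSHlow tumors 3 were higher and 6 lower (median −0.18), in BSHhigh tumors 2 higher and 5 lower (median −0.06). *Srgn*, the proteoglycan core that binds granule proteases, rose by log2 1.50 and 1.11. *Hpgds*, which makes prostaglandin D2, rose by 1.05 in BSHlow tumors, where it was at 22.2, 27.3, 7.23 and 35.7 CPM against 12.0, 9.14, 13.3 and 10.4 in non-tumor tissue. *Tpsg1*, a transmembrane tryptase, fell by 4.85 (BSHlow) and 3.16 (BSHhigh), and *Tph1*, which makes serotonin and is also used by enteroendocrine cells, fell by 4.78 and 3.35. Of the 3 enteroendocrine markers, 3 were lower in BSHlow and 2 in BSHhigh tumors, and they summed to between 16.8 and 72.5 CPM in tumors and between 213 and 310.2 CPM in non-tumor tissue, with *Ddc* the most abundant in each of the 7 tumors and *Chgb* on average over the 23 libraries.

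Of 12 FcεRI signaling genes, 3 were higher and 1 lower in BSHlow tumors (median −0.13) and 3 higher and 0 lower in BSHhigh tumors (median 0.32). These counts stood beside 16.7% of all genes called higher and 19.5% lower (BSHlow), and 14.6% and 14.8% (BSHhigh). In both strains the higher genes were *Fcer1g*, the gamma chain (1.17 and 1.63), the adaptor *Lcp2* (1.48 and 1.22) and the phospholipase *Plcg1* (1.63 and 1.43), and *Btk*, a kinase also of B cells, fell by 1.64 in BSHlow tumors. The B cell marker *Cd79a* fell by log2 6.27 in BSHlow and 4.24 in BSHhigh tumors, with 0.0968 to 4.15 CPM in tumors and 3.04 to 101 CPM in non-tumor tissue.

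Among 12 genes of mast cell growth and homing, 8 were tested, and 4 were higher and 2 lower in BSHlow tumors (median 0.37) and 3 higher and 1 lower in BSHhigh tumors (median 0.54). *Il33*, an alarmin that acts on mast cells, was at 33.1, 41.0, 58.2 and 34.2 CPM in the BSHlow tumors, 34.3, 43.0 and 56.0 CPM in the BSHhigh tumors and between 2.98 and 12.5 CPM in non-tumor tissue. Its receptor *Il1rl1* was at 244, 436, 399 and 302 CPM in the BSHlow tumors, 254, 139 and 243 CPM in the BSHhigh tumors and between 1.36 and 24.1 CPM in non-tumor tissue. Their log2 fold changes were 2.91 and 5.45 in BSHlow and 2.61 and 5.13 in BSHhigh mice, and all 7 tumors were above all 8 non-tumor libraries. The BSHlow value of *Il1rl1* includes BSHlow non-tumor replicate 4 at 24.1 CPM, while the rest of that group was between 1.36 and 2.84 CPM. *Kitl*, which encodes SCF, was at 264, 231, 220.3 and 256 CPM in the BSHlow tumors, 168, 204 and 210.1 CPM in the BSHhigh tumors and between 86.1 and 146 CPM in non-tumor tissue. It rose by log2 1.07 in BSHlow tumors and was 0.60 in BSHhigh tumors (adjusted p = 0.00186 by edgeR, under the fold limit, with 3 of 3 tumors above all non-tumor libraries). *Il9r*, the receptor of the mast cell growth factor IL-9, fell by 3.82 and 3.66, while *Il9* and *Il3* had 0 counts in all 23 libraries.

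Of 7 transcription factors of mast cells, 6 were tested, with 1 higher and 1 lower in BSHlow tumors (median −0.10) and 2 higher in BSHhigh tumors (median 0.19). *Gata2* was at 12.5, 1.67, 2.46 and 14.2 CPM in the BSHlow tumors, 3.99, 4.20 and 3.83 CPM in the BSHhigh tumors and between 0.746 and 1.48 CPM in non-tumor tissue. All 7 tumors were above all 8 non-tumor libraries, and the log2 fold change was 2.82 (SE 0.58) in BSHlow and 1.65 (SE 0.59) in BSHhigh mice. *Lyl1* fell by 2.48 in BSHlow tumors and *Tal1* rose by 1.39 in BSHhigh tumors. *Mitf*, which drives mast cell genes together with *Gata2*, was −0.24 (adjusted p = 0.512 by edgeR) and −0.38 (adjusted p = 0.344 by edgeR).

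Markers of other cells moved with the tissue as well. All 7 smooth muscle genes were lower in the tumors of each strain (median −5.00 and −4.50), and their sum was between 109 and 287 CPM in tumors, where *Acta2* was the most abundant, and between 1170.4 and 7109 CPM in non-tumor tissue. *Myh11* was the most abundant on average over the 23 libraries, as was the gene named directly after each list that follows. *Actg2* of the muscle list was between 9.05 and 42.3 CPM in tumors and between 125 and 1479 CPM in non-tumor tissue. Fibroblast genes (*Col1a1*) were higher for 2 of 5 (BSHlow) and 3 of 5 (BSHhigh) and lower for 1, and macrophage genes (*C1qa*) were higher for 0 of 4 and 1 of 4. Of 8 epithelial genes (*Krt8*), 6 were lower in BSHlow and 2 in BSHhigh tumors. Of 4 T cell genes (*Cd3g*), 1 was higher in BSHlow tumors (*Trac*), where the other 3 had negative values without a call (median of the 4 −1.13), and 2 were higher in BSHhigh tumors (median 1.34). Of 2 eosinophil genes tested (*Siglecf*), 2 and 1 were lower. *Ptprc* was lower in BSHlow tumors (−1.24) and had −0.77 in BSHhigh tumors, without a call. The 5 Wnt target genes that mark *Apc*-deleted tumors (*Nkd1*) were higher in both, with sums of 1048 to 1622 CPM in tumors and 33.6 to 63.9 CPM in non-tumor tissue. None of the marker genes of these lists was at 0 in all libraries, and their part in the results for mast cell genes was not tested.

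The second question was whether BSHhigh and BSHlow tumors differed. *Hdc* averaged 99.5 ± 88.3 CPM (SD, n = 4) in BSHlow tumors and 27.5 ± 9.73 CPM (n = 3) in BSHhigh tumors, and *Kit* averaged 13.2 ± 5.17 and 21.2 ± 4.24 CPM. Neither difference passed the test. By edgeR 0 of 10 members were called, against 0.476% of the 15325 genes tested (0.463% called higher and 0.0131% lower). At an unadjusted p under 0.05 there was 1 member by edgeR (*Hdc*), 2 by DESeq2 and 1 by limma-voom, and DESeq2 and limma-voom called 0. The median of the members was −0.34 and that of all genes −0.03. The background itself rested on single tumors: over all genes edgeR called 71 higher and 2 lower, but 0 without BSHlow tumor 1, 3 or 4 (2176, 1666 and 1901 genes at an unadjusted p under 0.05), 3 higher without BSHlow tumor 2, 6 and 1 higher without BSHhigh tumors a and b, and 234 higher and 6 lower without BSHhigh tumor c. DESeq2 called 489 higher and 45 lower, and limma-voom 40 and 1.

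*Hdc* had a log2 fold change of −1.89 (SE 0.82, adjusted p = 0.390 by edgeR) in BSHhigh against BSHlow tumors, and the 3 BSHhigh tumors lay between the lowest and the highest BSHlow tumor. Without BSHlow tumors 1 and 4 it was 0.13, and the values of *Ms4a2* and *Tpsb2* went from −0.76 and −0.48 to 2.61 and 1.32, with 0 members called by edgeR and 2 at an unadjusted p under 0.05. *Kit* had 0.66 (SE 0.29, adjusted p = 0.401 by edgeR), with 2 of 3 BSHhigh tumors above all BSHlow tumors. The chymase genes *Mcpt1*, *Mcpt2*, *Mcpt4* and *Cma1* had −0.85, −0.20, −0.87 and 0.39, *Cpa3* had 0.26 and *Fcer1a* 0.19. The adjusted p-values of these 6 were between 0.564 and 0.933 by edgeR. Their size moved with the tumors left out: *Mcpt1* had −1.50 without BSHhigh tumor c and −0.55 without BSHlow tumor 1, and *Mcpt4* had −0.27 without BSHlow tumor 3 and −1.14 without BSHlow tumors 1 and 4 together. Leaving out 1 tumor turned *Mcpt2* to at most 0.13, *Cpa3* to −0.06 and *Fcer1a* to −0.12 at the lowest. *Ms4a2* also turned without BSHlow tumor 1, and *Tpsb2* and *Ms4a2* turned with limma-voom. In the other mast cell lists 0 genes were called by edgeR. Of the 12 FcεRI signaling genes 10 had a positive value, none of which passed the test (median 0.35), against 45.5% of all genes (median −0.03). Some of them, such as *Lcp2* and *Btk*, are also used by T or B cells, and many markers of other cells had positive values too. Among leukocyte markers these were 4 of 4 T cell genes (median 2.42), 4 of 4 macrophage genes (median 0.41), 3 of 4 neutrophil genes (median 0.66), the B cell gene *Cd79a* (2.47) and *Ptprc* (0.65), while the 1 basophil gene tested had −0.11. Positive as well were 7 of 7 smooth muscle genes (median 0.52), 8 of 8 epithelial genes (0.31), 5 of 5 goblet and deep secretory genes (2.52), 3 of 3 enteroendocrine genes (2.38), 2 of 3 genes of interstitial cells of Cajal (0.11), 2 of 5 fibroblast genes (−0.06) and 2 of 5 Wnt target genes (−0.32). The part of these cells was not tested. Of the markers of other cells, *Slc26a3* of the epithelium, *Chga* of enteroendocrine cells and *Reg4* were called higher (*Reg4* log2 fold change 1.44, adjusted p = 0.0363 by edgeR, with 3 of 3 BSHhigh tumors above all BSHlow tumors). None of these 3 calls held without BSHlow tumor 1, 3 or 4, where edgeR called no gene.

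**Figure D4:**
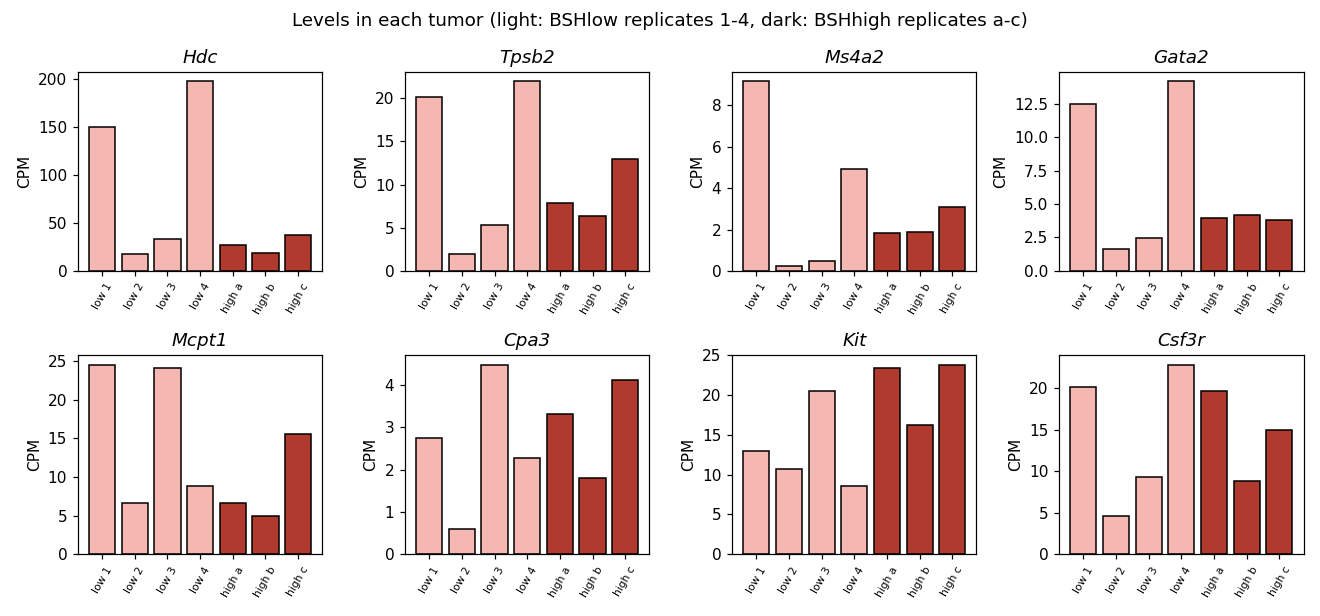
CPM (vertical axes, from 0) of *Hdc*, *Tpsb2*, *Ms4a2*, *Gata2*, *Mcpt1*, *Cpa3*, *Kit* and *Csf3r* in the 7 tumors (bars; light for BSHlow 1 to 4, dark for BSHhigh a to c). BSHlow tumors 1 and 4 have the highest bars for *Hdc* (150.0 and 198), *Tpsb2*, *Ms4a2* and *Gata2*, but not for *Kit*; *Csf3r* is 1 of 4 neutrophil genes, and the other 3 were lower in BSHlow tumor 1 than in BSHhigh tumors a and c, while *Retnlg* was highest in BSHlow tumor 4.

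Among the tumors, several members varied together. BSHlow tumors 1 and 4 had the 2 highest values of *Hdc*, *Tpsb2*, *Ms4a2*, *Gata2* and *Prkcq* of the 7 tumors; *Prkcq*, a kinase, was at 11.9, 2.98, 1.84 and 16.4 CPM in BSHlow and 4.66, 5.13 and 5.34 CPM in BSHhigh tumors. *Mcpt1* instead was highest in BSHlow tumors 1 and 3. *Csf3r*, a neutrophil receptor, was at 20.2, 4.60, 9.26 and 22.8 CPM in BSHlow and between 8.75 and 19.7 CPM in BSHhigh tumors. Within the BSHlow tumors the other 3 neutrophil genes took the same order as *Csf3r*, with tumors 4, 1, 3 and 2 from the highest. Of the 7 tumors, however, none of these genes had BSHlow tumors 1 and 4 as the 2 highest. In BSHlow tumor 4 *Retnlg* was at 44.8 CPM, the highest of the 7, *S100a9* at 191 CPM, below BSHhigh tumor c, and *S100a8* at 96.8 CPM, below BSHhigh tumors a and c. In BSHlow tumor 1 *S100a8* was at 31.3, *S100a9* at 55.5 and *Retnlg* at 2.46 CPM, each below BSHhigh tumors a and c. Over the 7 tumors, as a description of libraries that share sequencing and scaling, *Tpsb2* and *Ms4a2* had r = 0.946 (rho = 0.929, r without the 2 farthest tumors 0.938). *Tpsb2* and *Gata2* had r = 0.916 (rho = 0.857, without 2 0.853) and *Ms4a2* and *Gata2* r = 0.920 (rho = 0.857, without 2 0.820). *Hdc* and *Gata2* had r = 0.910 (rho = 0.679), which rested on 2 tumors, since r was 0.298 without them. *Kit* went the other way from *Hpgds* (r = −0.920, rho = −0.857, without 2 −0.849). Genes from the lists of other cells gave values as high. *Csf3r* had r = 0.923 with *Tpsb2* (rho = 0.929, without 2 0.747). *Cd200r3*, listed here for basophils, had 0.936 with *Mcpt2* (rho = 0.929, without 2 0.798) and 0.931 with *Cpa3* (rho = 0.893, without 2 0.791). The other genes of that list were near 0 CPM, and whether *Cd200r3* came from other cells here was not tested. *Ano1* of interstitial cells of Cajal had r = −0.926 with *Hdc* (rho = −0.964, without 2 −0.757) and −0.919 with *Tpsb2* (rho = −0.857, without 2 −0.926). Of the 45 pairs of members, 40 had a positive r in tumors, with a median of 0.46.

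For *Ms4a2* the promoter is shown because it held 3 GATA matches, the most of the 8 windows, at 224, 37 and 11 bases before the start. The window is chr19:11623720-11623969 on the minus strand of GRCm38.p6 (RefSeq), with the matches in capitals.
Ms4a2: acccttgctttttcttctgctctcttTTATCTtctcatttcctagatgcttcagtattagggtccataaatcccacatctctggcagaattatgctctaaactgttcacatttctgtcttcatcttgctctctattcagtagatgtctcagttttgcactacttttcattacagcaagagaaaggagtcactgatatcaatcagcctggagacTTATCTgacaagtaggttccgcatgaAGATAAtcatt

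The third question was whether the strains differed in non-tumor tissue at 12 weeks and in colon at 2 weeks. In non-tumor tissue the high and low values came from single libraries. *Mcpt4*, *Cpa3* and *Tpsb2* were highest in BSHhigh replicate 2, *Mcpt2* and *Hdc* in BSHhigh replicate 1, and BSHlow replicate 4 had the lowest *Cma1* and *Cpa3* of its group. By edgeR 0 of the 8 members tested were called, against 0% of the 14933 genes tested, and 0 members had an unadjusted p under 0.05 by edgeR, DESeq2 or limma-voom. Over all genes, 1377 had an unadjusted p under 0.05 by edgeR, and DESeq2 called 45 higher and 14 lower and limma-voom 0. The log2 fold changes of BSHhigh against BSHlow were between −0.41 (*Mcpt1*) and 1.71 (*Hdc*, SE 1.08, adjusted p = 0.682 by edgeR), with a median of 0.51 (all genes −0.01). *Hdc* had 0.51 without BSHhigh replicate 1 and 2.87 without BSHlow replicate 4. *Mcpt2* turned from 1.47 to −0.25 without BSHhigh replicate 1. Without BSHhigh replicate 2, *Cpa3* turned from 1.48 to −1.30, *Mcpt4* from 0.60 to −2.83, *Tpsb2* from 0.41 to −1.82 and *Cma1* from 0.08 to −0.75, which also turned without BSHlow replicate 1 or 4. *Kit* had 0.35 (SE 0.16, adjusted p = 0.578 by edgeR), with 2 of 4 BSHhigh libraries above all BSHlow libraries. *Fcer1a* and *Ms4a2* were under the filter on low counts.

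Over the 8 non-tumor libraries, again as a description, the connective tissue granule genes varied together. *Mcpt4* and *Cpa3* had r = 0.914 (rho = 0.810, r without the 2 farthest libraries 0.815), *Mcpt4* and *Tpsb2* r = 0.914 (rho = 0.762, without 2 0.909) and *Cma1* and *Cpa3* r = 0.877 (rho = 0.929, without 2 0.820). *Cma1* and *Tpsb2* had a lower r of 0.660 (rho = 0.667, without 2 0.802), and *Mcpt1* and *Mcpt4* had r = −0.04. A marker of other cells, *Ano1* of interstitial cells of Cajal, had r = 0.816 with *Mcpt4* (rho = 0.714, without 2 0.630). Of the 45 pairs of members, 27 had a positive r, with a median of 0.15.

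At 2 weeks, *Mcpt1*, *Mcpt2* and *Kit* passed the filter, and the other 7 members were at most 0.547 CPM in any library. By edgeR 0 of these 3 were called, against 0.00727% of the 13752 genes tested, and 1 (*Mcpt1*) had an unadjusted p under 0.05 by edgeR, as did 1 by DESeq2 and 1 by limma-voom, which also called 0. Over all genes DESeq2 called 19 higher and 8 lower, limma-voom 1 higher and edgeR 34 higher and 3 lower without BSHlow replicate 4. *Mcpt1* had a log2 fold change of −0.99 in BSHhigh against BSHlow colon (SE 0.28, adjusted p = 0.607 by edgeR), and 4 of 4 BSHhigh libraries were below all BSHlow libraries. *Mcpt2* had 0.03 (SE 0.43, and −0.28 to 0.37 without 1 library) and *Kit* −0.23 (SE 0.11, adjusted p = 0.742 by edgeR).

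The fourth comparison set 12-week non-tumor tissue against 2-week colon of the same strain, in which time on diet, age and the way the tissue was taken cannot be told apart. Genes of connective tissue mast cells, *Mcpt4*, *Cma1* and *Tpsb2*, were higher at 12 weeks in both strains, as was *Hdc*, and *Mcpt1* was lower in both. *Cpa3* was higher in BSHhigh mice. By edgeR 5 of 8 members tested were called in BSHlow mice, against 25.0% of the 15532 genes tested, and 6 of 8 in BSHhigh mice, against 24.4%. Higher were 4 and 5 members, against 17.0% and 16.8% of all genes, and lower was 1 in each, against 8.06% and 7.56%. At 2 weeks alone *Mcpt1*, *Mcpt2* and *Kit* passed the filter on low counts. The 5 members called higher in either strain therefore entered this comparison through the 12-week libraries, where they were high. Their calls, the p-values given for them below and their count beside these shares are a description, not support. *Fcer1a* and *Ms4a2* were under the filter, and *Fcer1a* was called in BSHhigh mice without the filter and in a fit of all 23 libraries (7 members called in each).

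*Cma1* went from 0 counts in the 4 BSHlow libraries of 2 weeks to 411 counts at 12 weeks, at least 112-fold higher against a floor of 3 counts over the group (adjusted p = 0.000480 by edgeR, higher in 4 of 4 libraries). In BSHhigh mice it went from 3 to 442 counts, a ratio of 119 (95% counting interval 40.4 to 578, adjusted p = 0.000753 by edgeR, higher in 4 of 4 libraries). Non-tumor replicate 2 held 260 of the 442 counts and 2-week replicate 4 held 2 of the 3, and the fitted log2 fold change went from 6.70 to 5.87 without the former and to 7.66 without the latter. *Mcpt4* went from 2 to 97 counts in BSHlow mice, a ratio of 39.6 (10.7 to 331, adjusted p = 0.0220 by edgeR, higher in 4 of 4 libraries). Both counts of 2 weeks came from replicate 3, and without it the fitted log2 fold change went from 4.997 to 7.50, which is no bound since the 2-week group was then at 0. *Mcpt4* in BSHhigh mice went from 1 to 154 counts, a ratio of 124 (22.0 to 4936, adjusted p = 0.00757 by edgeR, 3 of 4 libraries above all of 2 weeks), of which replicate 2 held 144. Its fitted value went from 6.41 to 2.99 without that library and to 8.09 without 2-week replicate 3, which held the 1 count. The *Mcpt4* call was lost in BSHlow mice without 2-week replicate 1 (adjusted p = 0.0572 by edgeR), 2 (0.0557) or 4 (0.0552), in a range of 0.00156 to 0.0572. In BSHhigh mice it was lost without non-tumor replicate 2 (adjusted p = 0.103 by edgeR) and with limma-voom (0.155), in a range of 0.00239 to 0.155. DESeq2 gave no adjusted p-value for *Mcpt4* in either strain. *Cpa3* in BSHhigh mice went from 2 to 204 counts, a ratio of 82.2 (22.5 to 684, adjusted p = 0.00355 by edgeR, higher in 4 of 4 libraries), with the fitted log2 fold change moving to 3.29 without non-tumor replicate 2. In BSHlow mice *Cpa3* had 2.75 (SE 1.27, adjusted p = 0.0855 by edgeR) and was called by DESeq2 (0.0404) and without BSHhigh non-tumor replicate 2 (0.0121), in a range of 0.0121 to 0.201.

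*Tpsb2* rose by log2 3.64 (SE 1.03, adjusted p = 0.00844 by edgeR, higher in 4 of 4 libraries) in BSHlow mice. It rose by 3.37 (SE 0.96, adjusted p = 0.00853 by edgeR, 3 of 4 libraries above all of 2 weeks) in BSHhigh mice, where it was 1.14 without non-tumor replicate 2 (adjusted p = 0.126 by edgeR, the highest of a range from 0.00100). *Hdc* rose by 3.31 (SE 1.22, adjusted p = 0.0348 by edgeR, 3 of 4 libraries above all of 2 weeks) and 4.90 (SE 1.18, adjusted p = 0.00295 by edgeR, 4 of 4). The BSHlow call of *Hdc* was lost without non-tumor replicate 4 (2.15, adjusted p = 0.162 by edgeR), without 2-week replicate 1 (0.0874), 2 (0.0683) or 4 (0.0700), in a fit of all 23 libraries (0.0988) and with limma-voom (0.219), in a range of 0.00702 to 0.219. The BSHhigh value of *Hdc* was 3.68 without non-tumor replicate 1 and 5.79 without 2-week replicate 3. With limma-voom the BSHhigh calls of *Cpa3* (adjusted p = 0.0578, in a range from 7.78e-05), *Tpsb2* (0.0880) and *Hdc* (0.0610, in a range from 2.73e-05) were lost. *Mcpt1* fell by 2.10 (SE 0.44, adjusted p = 0.00104 by edgeR, lower in 4 of 4 libraries) in BSHlow mice and by 1.50 (SE 0.44, adjusted p = 0.0110 by edgeR, 3 of 4 libraries below all of 2 weeks) in BSHhigh mice. The latter was −2.27 without non-tumor replicate 1. *Mcpt2* had −0.64 (adjusted p = 0.490 by edgeR) and 0.82 (adjusted p = 0.349 by edgeR), the latter −0.92 without non-tumor replicate 1. *Kit* had −0.51 (SE 0.15, adjusted p = 0.00978 by edgeR, under the fold limit, lower in 4 of 4 libraries) and 0.09 (adjusted p = 0.620 by edgeR), so that the receptor gene was abundant at 2 weeks although 7 other members were scarce. The difference between the strains in this comparison was not tested.

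The counts were sensitive to single libraries: in BSHlow mice 3 members were called without 2-week replicate 1, 2 or 4. With library totals only, the median of all genes moved to 0.23 (BSHlow) and 0.31 (BSHhigh), and the share of higher genes among all calls in BSHhigh mice moved from 69.0 to 79.5%.

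Markers of other cells changed between the same samples. All 7 smooth muscle genes were higher at 12 weeks in both strains (median 5.49 and 5.45), with sums of 6.11 to 142 CPM at 2 weeks against 1170.4 to 7109 CPM. *Actg2* was between 0.547 and 17.1 CPM at 2 weeks. All 5 fibroblast genes (median 3.77 and 3.25) and all 4 macrophage genes (median 2.70 and 2.68) were higher too, with sums of 25.6 to 108 and 8.58 to 26.2 CPM at 2 weeks against 202 to 1618 and 34.0 to 129 CPM. The sum of the 4 neutrophil genes was between 0.240 and 1.29 CPM at 2 weeks against 1.57 to 14.5 CPM (BSHlow) and 7.42 to 126 CPM (BSHhigh) at 12 weeks. None of the 4 passed the filter at 2 weeks, and the 3 tested (*Csf3r* called higher in BSHlow mice, all 3 in BSHhigh mice) entered through the 12-week libraries, so this count is a description only. Genes of interstitial cells of Cajal were higher for 3 of 3 and 2 of 3, and the B cell gene *Cd79a* in both strains, while T cell genes were lower for 0 of 4 and 3 of 4. Epithelial genes were lower for 3 of 8 in each strain (*Krt20*, *Cdx2* and *Car1*), with sums of 22617 to 31909 CPM at 2 weeks against 7937 to 11316 CPM. *Car1* was between 6657 and 18480 CPM at 2 weeks and between 59.6 and 710 CPM in non-tumor tissue. The part of these cells in the rise of *Hdc* and of the connective tissue mast cell genes was not tested. Of the FcεRI signaling genes 6 of 12 (BSHlow) and 3 of 12 (BSHhigh) were higher, against 17.0% and 16.8% of all genes. Of the growth genes 5 of 8 and 3 of 8 were higher. *Il33* was called higher in both strains, by log2 2.60 in BSHlow mice. In BSHhigh mice 1 growth gene (*Itgae*) was lower. Transcription factors were higher for 3 of 6 and 2 of 6. Among the 11 granule and mediator genes tested, 4 and 3 were higher and 1 (*Alox5*) lower in each. *Slc18a2*, *Il9r*, *Gata2* and *Tal1* of these lists were also under the filter at 2 weeks and entered through the 12-week libraries, so the counts of the granule, growth and transcription factor lists are a description only.

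Divided by exon length, the levels of the members took a different order in each tissue. In CPM per kilobase, *Kit* led at 2 weeks with a mean of 7.21 (BSHlow) and 6.19 (BSHhigh), followed by *Mcpt1* (4.75 and 2.40) and *Mcpt2* (1.40 and 1.43). In non-tumor tissue *Cma1* (6.12 and 6.43) and *Kit* (5.11 and 6.48) stood first and did not differ beyond their spread. In tumors *Mcpt1* stood first (15.8 and 8.91), with *Hdc* (15.6) next in BSHlow and *Mcpt2* (7.05) next in BSHhigh tumors, and these neighbours did not differ beyond their spread. *Fcer1a* and *Ms4a2* were the 2 lowest in tumors, at 0.794 and 1.32 (BSHlow) and 0.930 and 0.799 (BSHhigh). Across the 6 groups, the mean CPM of *Hdc* ran from 99.5 (BSHlow tumors) over 27.5 (BSHhigh tumors), 4.88 and 1.49 (BSHhigh and BSHlow non-tumor tissue) to 0.153 and 0.148 at 2 weeks, and the 2 tumor groups, the 2 non-tumor groups and the 2 groups of 2 weeks did not differ from each other beyond their spread. *Kit* ran from 64.3 (BSHlow at 2 weeks) to 13.2 CPM (BSHlow tumors).

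The genes most like each member over the 23 libraries were taken from 16754 genes by the correlation of log2 CPM, as a description in which tissue differences are included. For *Kit* they were *2810030D12Rik* (r = 0.98 over 23 libraries and 0.98 over the 15 of 12 weeks), *Slc12a8* and *Snhg18*. *Hdc* was most like *Bdnf* (0.95 and 0.92), *Tubb4a* and *Nptx1*, and *Ms4a2* most like *0610033M10Rik* (0.94 and 0.95), *Mobp* and *Pkd2l1*. For *Mcpt1* they were *Ip6k2* (0.94 and 0.96), *Pabpn1* and *Snrnp70*, and for *Mcpt2* *Trp53cor1* (0.88 and 0.91), *Gm15832* and *Gsdma2*. *Cma1* was most like *Gm45397* (0.95 and 0.75), *C4bp* and *Hoxd13*, and *Tpsb2* most like *Zdhhc14* (0.94 and 0.87), *Necab1* and *Mapk8ip1*. *Cpa3* and *Fcer1a* shared *Alox15* as the gene most like them (0.87 and 0.84, 0.89 and 0.82), and *Mcpt4* was most like *Rps6* (0.87 and 0.70).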

How the data were processed

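Total RNA of colon was sequenced in 23 libraries. Per the labels and methods, the authors used cutadapt, STAR, Picard and RSEM with mm10 (versions not given in the sources used here) and deposited the expected counts that RSEM estimates for each gene, without normalization. The labels and the methods differ on the library kit (total RNA or mRNA, both stranded) and on the interval of colonization. Of the values, 4.24% were not whole, and all were rounded. *Fgf6* was left out because 1 cell holds text, and 26837 genes had 0 counts in all libraries. No 2 replicates were alike within sampling noise (chi-square per degree of freedom 16.6 to 126 in 33 pairs, genes with at least 20 counts).

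Tests were run in edgeR 4.0.16 under R 4.3.3 (glmQLFTest, TMM, filterByExpr, prior count 2 for log2 CPM), with p-values adjusted by Benjamini-Hochberg over all genes tested. The strains were compared within their own libraries, tumors with non-tumor tissue and the interaction in the 15 libraries of 12 weeks, and the time points in the 16 libraries of 2-week and non-tumor tissue. SE is the absolute log2 fold change divided by the square root of F. The alternatives were DESeq2 1.42.0, limma-voom (limma 3.58.1), library totals only, other filters, a fit of all 23 libraries, the replicate number as a block and fits without each library in turn. Levels, shares, correlations and promoter searches were computed in Python 3.11.15 (numpy 2.4.6, pandas 2.3.3, scipy 1.17.1) and drawn with matplotlib 3.10.9. The 10 members and the lists were chosen with earlier results of these data known. From each list up to 3 higher and 3 lower called genes per comparison with a mean of at least 1 CPM could be named, besides the markers given as levels, the most abundant gene of each list and the 3 genes most like each member. The genes of the neutrophil list, *Csf3r* and *Prkcq* as levels in tumors, *Reg4* as a level, *Hpgds* as a level, *Il1rl1* as a level and *Cd200r3*, *Slc26a3*, *Chga*, *Acta2*, *Agr2* and *Ddc* were named after their values were seen, as were the list genes named for being under the filter in 1 tissue or at 2 weeks.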

Additional observations from a re-analysis of the deposited data

Results flagged for a closer look

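In groups of 4 libraries, a value was listed when its gap to the nearest other library was a large part of the range of the group (Dixon's test at 95%). Of 39 sets of a gene and a group that were tested, 6 were listed, from 3 libraries. For normal, independent values chance lists about 1 in 20. That rate need not hold for CPM of low counts in genes that share libraries, so no excess is read from it.

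BSHhigh non-tumor replicate 1 had 1.85 CPM of *Mcpt1* (nearest 0.558) and 8.14 CPM of *Mcpt2* (nearest 1.04), as well as the highest *Cdx2* of its group (59.7 CPM) and the highest sum of neutrophil markers (126 CPM). BSHhigh non-tumor replicate 2 had 8.93 CPM of *Mcpt4* (nearest 0.429), 11.4 CPM of *Cpa3* (nearest 0.668) and 9.30 CPM of *Tpsb2* (nearest 0.678). BSHlow non-tumor replicate 4 had 0.259 CPM of *Mcpt4* (nearest 1.90), together with the lowest sum of B cell markers of its group (6.86 CPM).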

How the results depend on the processing

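Of the counts of called members under the alternatives, 163 stayed within 1.5 times the value reported, 9 were lower and 1 was higher. For tumor against non-tumor tissue in BSHlow mice (7 called), limma-voom called 4, the replicate block 4 (of 8 tested, without *Cma1*, adjusted p = 0.164, range 0.00455 to 0.208, and *Tpsb2*, adjusted p = 0.1002, range 0.00312 to 0.520, by edgeR), the fit without BSHlow tumors 1 and 4, chosen after seeing the data, 4, and fits without 1 library 5 to 8. In BSHhigh mice (4 called), fits without 1 library called 3 to 7. For 12 weeks against 2 weeks, the BSHlow count (5) was 2 with the replicate block (of 4 tested) and 3 to 6 without 1 library. The BSHhigh count (6) was 2 with limma-voom, 2 with the replicate block (of 4 tested) and 4 to 6 without 1 library. Of the values of single members, 1352 kept their sign and their side of the thresholds, 39 lost a call and 16 gained one. A further 49 changed sign without a call in either fit, and 2 changed sign with a call. Without BSHhigh non-tumor replicate 2, these were *Mcpt4* (2.79, adjusted p = 0.0205 by edgeR, range 0.0205 to 0.804) and *Cpa3* (2.71, adjusted p = 0.0145 by edgeR, range 0.0145 to 1) in BSHhigh tumors. At the other end of the fits without 1 library they had −1.06 and −0.46. The cause was not tested, except that the block tested fewer members at 12 weeks against 2 weeks. For BSHlow tumors a fit of the 2 groups without the block tested the same number of members, 8, and called 6, *Cma1* and *Tpsb2* among them.

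Replicate numbers were not shown to pair the libraries: deviations of libraries with the same number had r between −0.173 and 0.260. Not every library correlated best with its own number. For BSHlow tumors against non-tumor tissue, numbers 1 and 4 did (r = 0.158 and 0.106) and numbers 2 and 3 did not. This check cannot tell whether libraries with the same number share a mouse, which the labels do not say. The block could not be fitted for the BSHhigh tumors, which carry no numbers.

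With the filter on low counts, *Fcer1a* and *Ms4a2* were tested only in fits that held tumors, and at 2 weeks 7 members were not tested between the strains. Without it all 10 were tested, and the 1 further call was *Fcer1a* in BSHhigh mice at 12 weeks against 2 weeks.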
